A study of Mus musculus with 14 samples.

Results

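Hox genes encode homeodomain transcription factors that lie in 4 clusters, HoxA to HoxD, and are numbered by paralog group from 1 at one end of a cluster to 13 at the other. The members described here are the genes of the deposited CPM table, whose name is Hox followed by a, b, c or d and a number, without antisense genes. CPM scales the reads of a gene to the total of its library. They are 36 of the 16181 genes of that table, with 9 in HoxA, 10 in HoxB, 9 in HoxC and 8 in HoxD. The count table of 50686 genes lists 39 Hox genes, and the 3 that are not members, Hoxa2, Hoxa6 and Hoxd12, were counted at no more than 0.749 CPM in any library. In the GRCm38 coordinates of the count table HoxA lies on the minus strand of chromosome 6, with Hoxa3 to Hoxa13 between positions 52169062 and 52260880. The HoxB members lie on the plus strand of chromosome 11 (96194316 to 96368256), the HoxC members on that of chromosome 15 (102921103 to 103036852) and the HoxD members on that of chromosome 2 (74668310 to 74765142).

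RNA with polyA tails was sequenced from 2 mouse embryonic stem cell (ESC) lines, 1 with an shRNA against LacZ as control (shLacZ) and 1 with an shRNA against Dis3l2, the gene of an exoribonuclease that degrades uridylated RNA (shDis3l2). Each line was sampled undifferentiated in LIF/2i medium (d0) and as embryoid bodies (EBs), aggregates that differentiate spontaneously in serum once LIF and 2i are withdrawn, every 2 days from d2 to d12. This gave 14 libraries, 1 for each line on each day. The study describes stable knockdown in an ESC line with an Osr1-GFP reporter, and whether a line is 1 clone is not given in the sources used here. With no replicates, each fold between the lines on a day compares 2 libraries, is given with its exact 95% Clopper-Pearson interval in parentheses and carries no p-value.

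In the embryo, Hox genes are activated one after another from the paralog 1 end to the paralog 13 end of each cluster, and their products specify position along the body axis. Low paralog numbers act in the hindbrain and neck, middle numbers in the trunk, and paralogs 9 to 13 in the lumbar, sacral and tail region, the limbs and the urogenital tract. Pbx and Meis proteins bind DNA together with Hox proteins, Cdx factors and retinoic acid activate the clusters, and Polycomb complexes keep them silent.

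Between 7178712 reads (shLacZ d4) and 39888099 reads (shLacZ d0) were counted on genes per library, so that the floor used here, 3 counts, stands for 0.418 to 0.0752 CPM. Dis3l2 was at 28.7, 15.8, 22, 23.8, 20.2, 19.2 and 19.7 CPM in shLacZ from d0 to d12 and at 3.93, 4.44, 7.05, 13.1, 19.6, 18.3 and 14.9 CPM in shDis3l2. The library labelled shDis3l2 thus held 13.7% (11.1 to 16.7%) of the shLacZ level at d0 and 55.2% (44.9 to 67.5%) at d6, while at d8 it held 97.1% (83.7 to 113%) and at d10 95% (78.8 to 115%), where a lower level was not detectable, and at d12 75.4% (60.9 to 93.4%). The Hox differences between the lines were mostly measured on those later days. In these bulk samples, fewer cells of a type and less RNA per cell cannot be told apart.

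Markers of other cell types differed between the lines over the late days, d6 to d12. The 6 mesenchyme markers summed to 321, 1451, 1667 and 1258 CPM in shLacZ. Their sums in shDis3l2 were 833, 7186, 13346 and 15270.2 CPM, and 5 of the 6 were higher in the line test given further on. For this and the following lists, 19.7% of all genes were higher and 19.2% lower in that test. The 6 visceral endoderm markers, all lower in that test, summed to 1902 to 3585 CPM in shLacZ and 385 to 1012 CPM in shDis3l2. The 6 pluripotency markers, 5 of them lower, summed to 325 to 389.5 and 44.8 to 252 CPM. The cardiomyocyte list (4 of the 5 tested higher) summed to 15.1 to 34.5 CPM in shLacZ and 17.2 to 122 in shDis3l2. The blood list (3 of 5 higher) summed to 5.75 to 811 and 35.4 to 1317, the endothelium list (2 of 6 higher) to 96.1 to 230.0 and 201 to 418. The neural list (2 of the 3 tested lower) gave 17.2 to 73.8 and 14.9 to 103. No marker was at 0 in these 8 libraries except in the neural list, where 1 to 3 of the 6 were at 0 in 7 of the libraries. The part of these cell types in the Hox results was not tested.

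**Figure D1:**
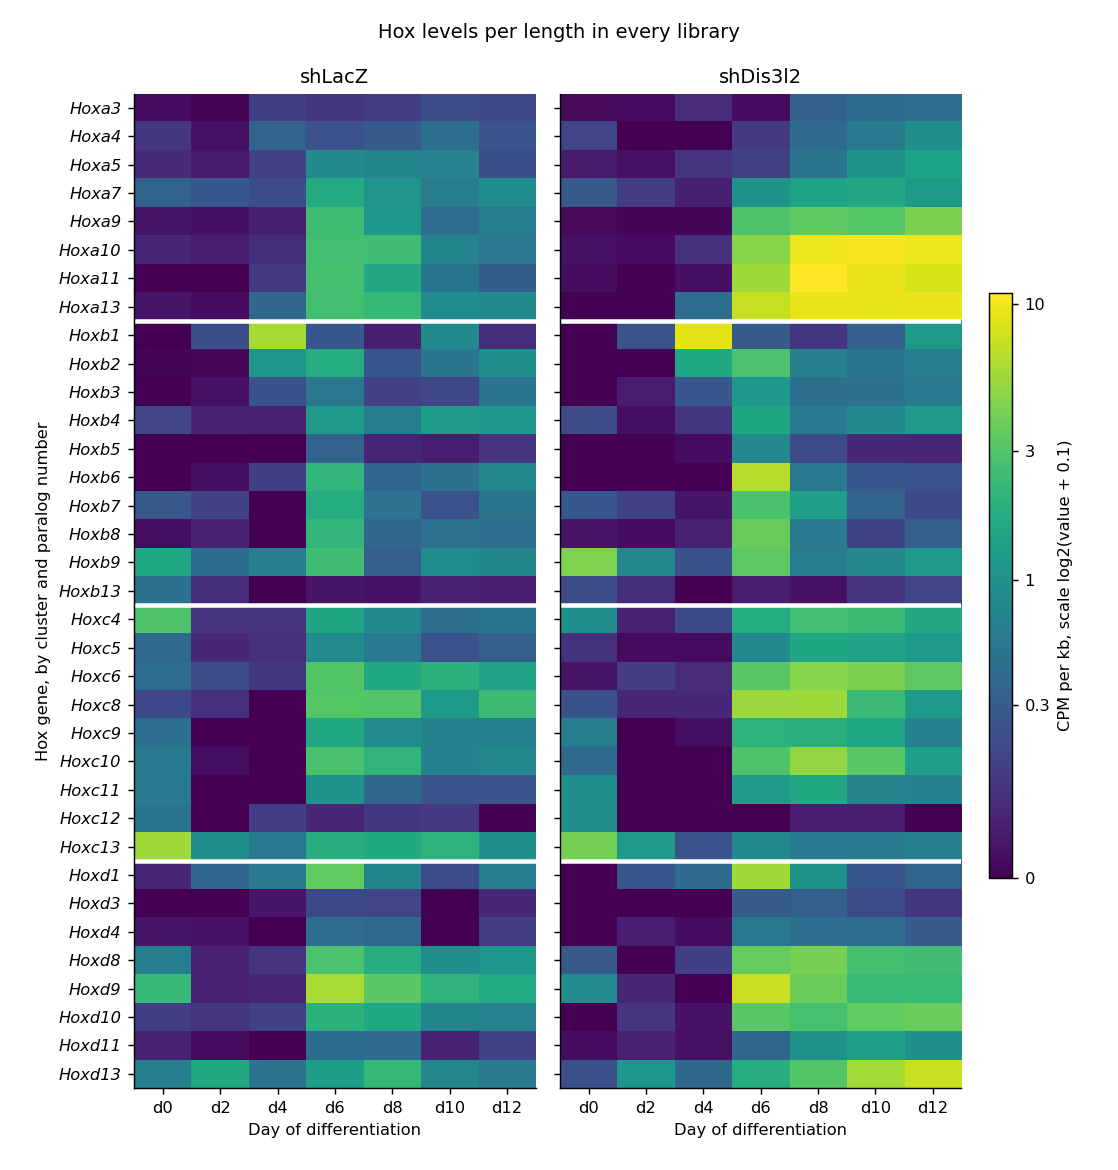
Level of 35 of the 36 Hox genes in each library, as CPM per kb of gene length on the scale log2(value + 0.1), with rows by cluster and paralog number (white lines part the clusters) and columns by day for each line. Few genes stand out before d6, the HoxB rows fade after d6 in both lines, and Hoxa10, Hoxa11 and Hoxa13 lie near 10 CPM per kb in shDis3l2 from d8.

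Most Hox genes came on between d4 and d6 in both lines. At a CPM of at least 1, 7 members were counted at d4 and 29 at d6 in shLacZ, and 5 and 30 in shDis3l2. The members summed to 34.1 CPM at d4 and 157 at d6 in shLacZ, and to 37.2 and 227 CPM in shDis3l2. Over all 14 libraries, with line as a block, 22 of the 31 members tested rose from the early (d0 to d4) to the late days and none fell. The threshold was a Benjamini-Hochberg adjusted p under 0.05 in edgeR's quasi-likelihood test, by which 18.6% of the 17162 genes tested rose and 25.6% fell, against 71.0% and 0.0% of the members. At an unadjusted p under 0.05 only Hoxc13 was lower (3.23% of the members tested, against 29.9% of all genes). In DESeq2 none was called lower and 25 of 33 were higher (75.8%), where 23.1% of all genes were lower and 19.1% higher. The median log2 change was 2.57 over the members tested and -0.08 over all genes, or 2.81 and 0.07 with library totals in place of TMM scaling. Libraries of 1 line are serial samples of 1 differentiation and not independent cultures. Leaving out 1 day at a time gave 12 to 26 members that rose. The lowest was 12 of 25 without d6 (48%, against 16.7% of all genes). The highest was 26 of 32 without d0 (81.25%, against 26.3%). A member then fell in 3 cases, Hoxb1 without d0 and Hoxc13 without d2 or d4.

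Among the members that rose, Hoxa11, Hoxa9 and Hoxb6 had the largest log2 changes. Hoxa11, which patterns the forearm, kidney and uterus, rose by a log2 change of 7.66 ± 0.97 (SE), adjusted p = 0.000146 in edgeR. Hoxa9, a factor of the lumbar region and of blood progenitors, rose by 6.26 ± 0.67 (SE), adjusted p = 7.08e-05, and Hoxb6, a trunk gene, by 6.22 ± 1.27 (SE), adjusted p = 0.00217. Hoxa11 and Hoxb6 had at most 2 reads in any early library and Hoxa9 at most 7. The sizes of these 3 changes thus rest on early counts near or under the floor. Hoxa11 and Hoxa9 passed in every alternative fit. Hoxb6 had no p-value in DESeq2 and was not tested without d6, d8 or d10, when its counts were under the filter. Of the 9 members that did not pass, 4 were at 4 or more CPM in undifferentiated shLacZ cells. They had log2 changes of the following sizes in edgeR, Hoxc13 (-1.5 ± 0.69 (SE), adjusted p = 0.0916), Hoxb9 (-0.48 ± 0.74 (SE), adjusted p = 0.631), Hoxc4 (0.4 ± 0.94 (SE), adjusted p = 0.751) and Hoxd9 (2.2 ± 1.03 (SE), adjusted p = 0.098).

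At d4 the highest member per length was Hoxb1 in both lines, at 5.82 CPM per kb in shLacZ and 9.05 in shDis3l2. Hoxb1, a gene of the early hindbrain and primitive streak region, was at 0, 0.493, 13.5, 0.601, 0.118, 1.94 and 0.198 CPM from d0 to d12 in shLacZ. Its levels in shDis3l2 were 0, 0.561, 21, 0.66, 0.254, 0.758 and 2.81 CPM. It was high at d4 alone in both series, and its ratio of d6 to d4 was 0.0445 (0.0187 to 0.0912) in shLacZ and 0.0314 (0.0125 to 0.0652) in shDis3l2. At d4 shDis3l2 held 1.56 (1.25 to 1.96) times the shLacZ level. Hoxb2, another hindbrain gene, was at 3.9 CPM at d4 in shLacZ and at 5.56 CPM in shDis3l2. Evx1, the homeobox gene beyond Hoxa13 at the end of HoxA, had the same peak day, with 0.526, 0.682, 62.7, 16, 3.25, 7.63 and 2.48 CPM in shLacZ. The shDis3l2 levels of Evx1 were 1.02, 0.28, 101, 17.7, 3.26, 1.89 and 3.0 CPM. Hoxa13 beside it was at 0.975 and 1.11 CPM at d4.

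The position of expression along the clusters was summarised as the mean paralog number weighted by CPM per kb. Over all members it was 9.17 at d0 and 8.98 at d2 in shLacZ, 3.63 at d4, and 7.54, 8.36, 7.44 and 7.21 from d6 to d12. In shDis3l2 it was 9.7, 9.32, 2.55, 7.66, 8.97, 9.1 and 9.27 from d0 to d12. In both lines the score was thus lowest at d4, when Hoxb1 led, and returned to the middle of the clusters at d6. As shDis3l2 minus shLacZ, the lines differed by 0.524 (95% interval 0.27 to 0.778) at d0 and 0.338 (-0.407 to 1.08) at d2. At d4 the difference was -1.07 (-1.67 to -0.474). Without the member with the highest CPM per kb, it was 2.35 (2.03 to 2.67) at d0 and -0.532 (-1.48 to 0.417) at d4. With all members the lines differed by 0.115 (95% interval -0.0991 to 0.329) at d6 and by 0.604 (95% interval 0.403 to 0.804) at d8. The differences for d10 and d12 were 1.66 (95% interval 1.31 to 2.02) and 2.07 (95% interval 1.75 to 2.39). These intervals cover counting error only.

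Paralogs 9 to 13 made up 48.4, 56, 45.6 and 38.8% of the summed CPM per kb from d6 to d12 in shLacZ and 48.5, 64.5, 68.4 and 71% in shDis3l2. The shares of the lines were close at d6 and parted afterwards. Hoxa9, Hoxa10, Hoxa11 and Hoxa13 alone held 10.1% in shLacZ and 44.3% in shDis3l2 at d12. Within HoxA the mean paralog number was higher in shDis3l2 by 1.88 (95% interval 1.48 to 2.29) at d8 and 3.18 (95% interval 2.41 to 3.95) at d12. Within HoxC the difference was -1.45 (95% interval -1.96 to -0.948) at d10 and -0.978 (95% interval -1.46 to -0.496) at d12, to lower numbers, and within HoxB it was -0.51 (95% interval -1.17 to 0.155) at d12. Within HoxD it was 2.35 (95% interval 1.69 to 3.02) at d12. These values depended on the member with the highest CPM per kb in each library. Without it, the HoxA difference of 1.3 (95% interval 0.823 to 1.77) at d6 turned to -1.87 (-2.29 to -1.44), and those of 3.48 (95% interval 2.72 to 4.24) at d10 and of d12 became 1.11 (0.394 to 1.82) and 0.995 (0.339 to 1.65). The HoxC difference then turned to 0.519 (0.0588 to 0.98) at d10 and was -0.535 (-1.22 to 0.153) at d12, and the HoxD difference at d12 was 0.949 (0.00168 to 1.9).

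**Figure D2:**
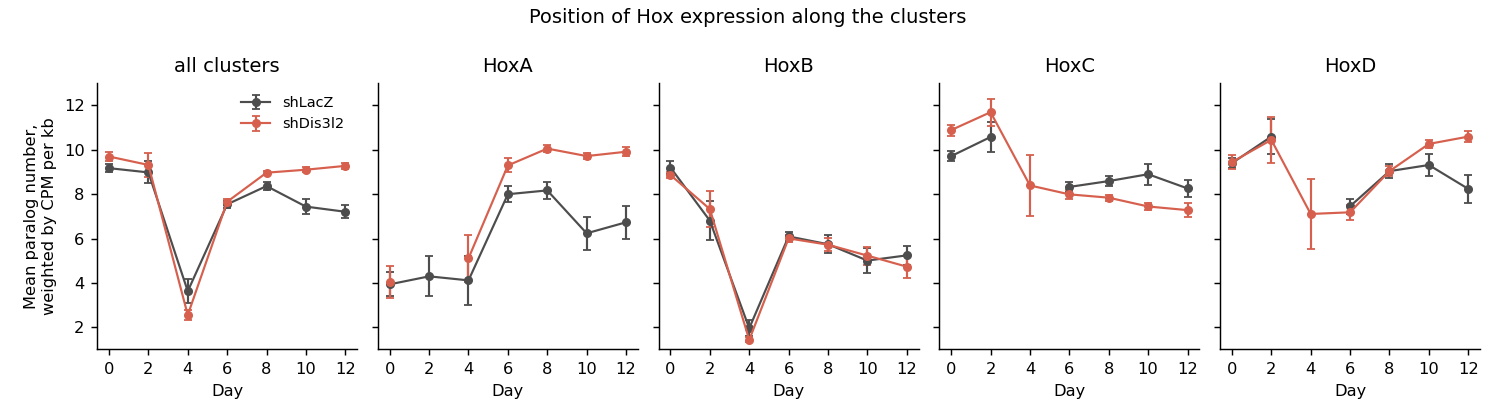
Mean paralog number weighted by CPM per kb by day, over all members and within each cluster, for shLacZ (grey) and shDis3l2 (red), with bars that span 95% counting intervals. Points with fewer than 30 Hox reads are left out. The score falls to 3.63 and 2.55 at d4 over all members, and the HoxA panels part from d6 on.

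Late in differentiation genes of HoxA, HoxC and HoxD differed between the lines, among them the last genes of HoxA. In HoxB only Hoxb3 passed the line test that follows. Over the 8 libraries from d6 to d12, in a fit with day as a block, 13 of the 29 members tested were higher in shDis3l2 and 1 was lower in edgeR's quasi-likelihood test (adjusted over all 16016 genes tested). Of all genes tested, 19.7% were higher and 19.2% lower, against 44.8% and 3.45% of the members. The median log2 fold change was 0.88 over these members and 0.01 over all genes. The days stand in for replicates, so the test describes these 2 series and not other cultures. The 7 members not tested, Hoxa4, Hoxb1, Hoxb5, Hoxb7, Hoxb13, Hoxc12 and Hoxd3, had low counts. A gene counted in 1 line alone could pass the filter, so the share among tested members is a description. Without a filter, 14 of the 36 members were higher (38.9%) and 1 was lower (2.78%), against 11.7% and 10.2% of all genes. Without the day block 7 of 29 were higher (24.1%) and 1 lower (3.45%), against 11.8% and 8.98% of all genes. Without d8, 4 of 29 members were higher (Hoxa10, Hoxa11, Hoxa13 and Hoxd10), which is 13.8% of them against 10.6% of all genes. Without d10, 2 of 30 were higher (Hoxa11 and Hoxa13), 6.67% against 10.2%. No member was lower in either fit, where 10.1% and 9.85% of all genes were.

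The 13 higher members were Hoxa9, Hoxa10, Hoxa11 and Hoxa13, then Hoxb3, then Hoxc4, Hoxc5, Hoxc6, Hoxc10 and Hoxc11, and Hoxd8, Hoxd10 and Hoxd13, and the lower one was Hoxc13. The slope of the line difference over the 4 days passed for no member in edgeR, and for none of the 16016 genes that passed its filter (0.0% higher and 0.0% lower). At an unadjusted p under 0.05 the slope was higher for 8 members and lower for 1, 27.6% and 3.45% of those tested, against 4.95% and 3.09% of all genes. Without the filter edgeR called 11 genes higher and 3 lower among 30873, none of them a member. DESeq2 called 4 of 31 members higher (12.9%), where 0.527% of all genes were higher and 0.242% lower. For the line difference itself, Hoxa11 and Hoxa13 passed in each of the 10 fits run (main and alternatives), with adjusted p of edgeR or DESeq2 between 2.76e-06 and 0.0442 for Hoxa11 and between 3.14e-11 and 0.0175 for Hoxa13. Hoxa10 and Hoxd10 passed in 9 of them. Of the 14 members called, Hoxb3 (5 fits) and Hoxc5, Hoxc10, Hoxc11 and Hoxd13 (6 fits each) passed in the fewest. In the main edgeR fit Hoxd13 (adjusted p = 0.04995) and Hoxc10 (0.0492) lay at the threshold.

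**Figure D3:**
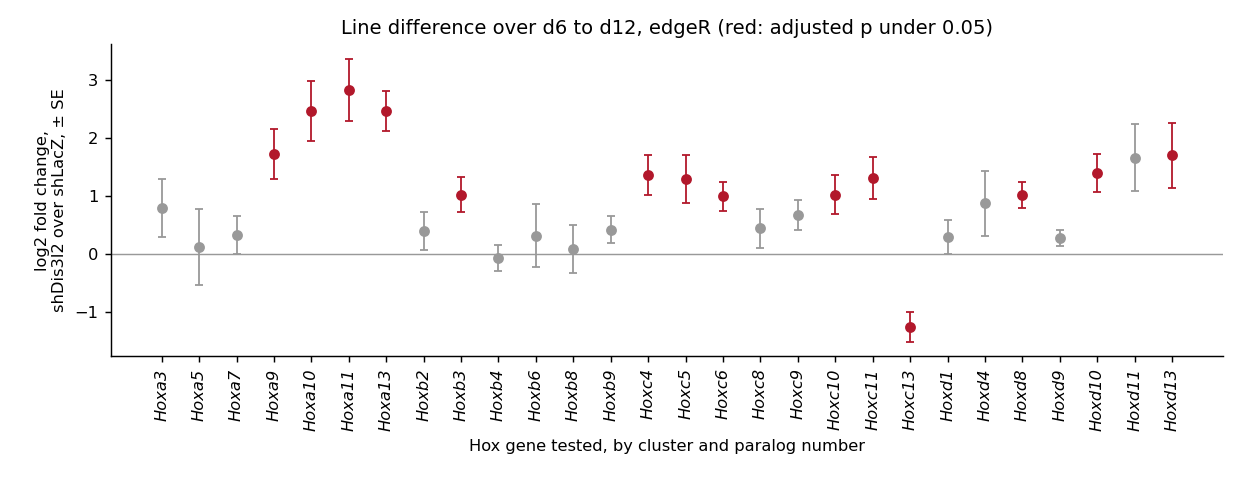
Log2 fold change of shDis3l2 over shLacZ across d6 to d12 with its standard error for 28 of the 29 Hox genes tested, by cluster and paralog number, with genes at an adjusted p under 0.05 in red. The values of Hoxa10, Hoxa11 and Hoxa13 are 2.47, 2.84 and 2.47, and Hoxc13 is the red point below 0, at -1.25.

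On single days, a member was counted as changed when its CPM differed at least 3-fold, provided that 1 of the libraries reached 1 CPM and more than 3 counts. None of the 3 members compared at d2 and none of the 9 at d4 changed, where 0.163% and 0.435% of all genes were higher and 0.207% and 1.78% lower. At d6 none of 31 was higher (all genes 2.68%) and only Hoxa5 was lower (all genes 3.99%). At d8, 7 of 31 were higher and none lower, where 5.15% of all genes were higher and 3.69% lower. At d10, 12 of 28 were higher and 2, Hoxb8 and Hoxc13, lower (all genes 7.95% and 3.23%), and at d12, 11 of 30 were higher and 1, Hoxb6, lower (all genes 7.55% and 1.48%). The 7 genes at d8 became 4 of 31 with TMM-scaled totals (all genes 4.51%), without Hoxa9, Hoxb3 and Hoxc4, whose folds were 3.08, 3.05 and 3.08.

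The median log2 fold of the members compared was 0.38, 1.12, 1.42 and 1.2 from d6 to d12, and that of all genes did not exceed 0.04 on these days. Over all clusters together, it was larger at higher paralog numbers at d12. It was 0.33 over 9 members of paralogs 1 to 4, 0.8 over 8 of paralogs 5 to 8 and 2.37 over 13 of paralogs 9 to 13. In this order the medians were 0.89, 1.14 and 2.22 at d10 and 0.9, 0.83 and 1.28 at d8. At d6 they were 0.55, 0.49 and 0.35, which is the reverse of the order at d12. The order at d12 did not hold in every cluster, with 1 to 4 members per band. Within HoxA the d12 medians were 1.27, 1.6 and 3.83, and within HoxD -0.86, 1.17 and 2.45. Within HoxC they ran the other way, at 1.57, 1.22 and 0.38, and within HoxB they were 0.16, -1.13 and 0.6. All 4 clusters had higher sums in shDis3l2 at d6 and d8, and parted at d10 and d12. The summed CPM of HoxA was 49.4, 34.1, 17.8 and 15.9 from d6 to d12 in shLacZ and 74.7, 112, 113 and 112 in shDis3l2. The HoxA ratios at d6, d8, d10 and d12 were 1.51 (1.36 to 1.68), 3.29 (3.0 to 3.61), 6.36 (5.39 to 7.57) and 7.09 (6.01 to 8.41). For HoxD they were 1.36 (1.2 to 1.54), 1.62 (1.43 to 1.82), 3.79 (3.04 to 4.76) and 3.59 (2.93 to 4.42) on the same days. Those of HoxC were 1.18 (1.04 to 1.34), 2.07 (1.86 to 2.31), 2.18 (1.84 to 2.61) and 1.41 (1.16 to 1.7). For HoxB they were 1.75 (1.55 to 1.99), 1.89 (1.51 to 2.37), 0.842 (0.665 to 1.07) and 1.09 (0.865 to 1.37), so that the summed level of HoxB did not differ beyond counting error on the last 2 days.

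**Figure D4:**
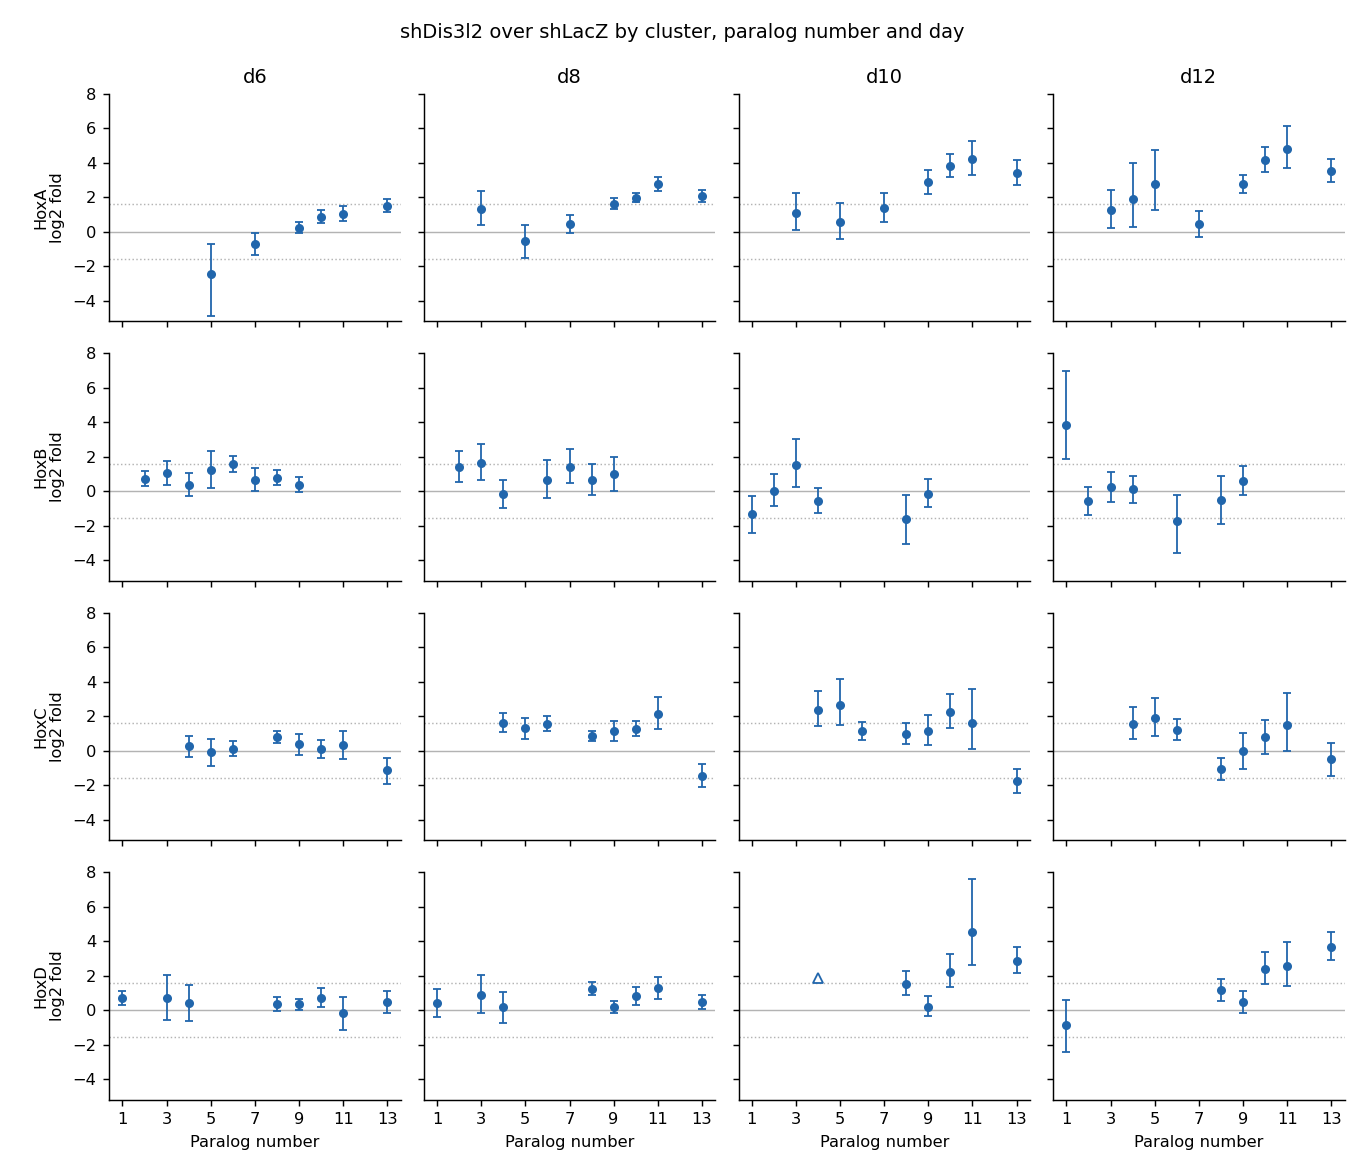
Log2 fold of shDis3l2 over shLacZ by paralog number at d6, d8, d10 and d12 for each cluster, over the 35 members shown where they reach 1 CPM in either library, with exact 95% intervals. Dotted lines mark 3-fold, and the open triangle is a lower bound against 0 reads (Hoxd4 at d10). Hoxa9 to Hoxa13 lie above the upper dotted line from d8, while most HoxB points lie between the lines.

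The posterior HoxA genes were higher at d6 than at d4 in both lines. Afterwards they fell in shLacZ, and at d12 they stood above their d6 level in shDis3l2. These 4 genes act in the limb and the urogenital tract, and Hoxa13 (chr6:52257694-52260880, minus strand) specifies the hand plate, the hindgut end and the genital tubercle. Hoxa13 was at 0.0752, 0.0379, 0.975, 6.31, 5.56, 2.18 and 2.08 CPM from d0 to d12 in shLacZ. The shDis3l2 series read 0, 0, 1.11, 17.8, 23.3, 22.7 and 23.6 CPM. The shDis3l2 libraries were higher on each day from d6, and the ranges of the 4 late libraries of each line did not overlap. Such non-overlap, here and for the genes below, is a description, since its share over all genes is not given. The ratio of the lines was 2.82 (2.17 to 3.69) for d6, 4.18 (3.34 to 5.28) for d8, 10.4 (6.53 to 17.8) for d10 and 11.3 (7.25 to 18.6) for d12. Over the 4 days the log2 fold change was 2.47 ± 0.34 (SE), adjusted p = 0.00242 in edgeR.

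Hoxa11 (chr6:52242106-52245810) was at 0, 0, 0.279, 6.09, 3.73, 1.21 and 0.694 CPM in shLacZ and at 0.0378, 0, 0.0483, 12.5, 25, 22 and 18.9 CPM in shDis3l2. At d12 7 reads were left in shLacZ, where shDis3l2 had 202. The ratio of the lines went from 2.06 (1.55 to 2.75) at d6 to 18.2 (9.78 to 38.1) at d10 and 27.2 (13 to 68.6) at d12. The late libraries of the lines did not overlap, and the log2 fold change was 2.84 ± 0.54 (SE), adjusted p = 0.00723 in edgeR. Its exons overlap those of the antisense gene Hoxa11os over 35.0% of their bases, and without a stated strand setting the reads of the 2 genes cannot be told apart there. Hoxa11os itself was counted at 1.73, 1.48, 0.605 and 0.694 CPM from d6 to d12 in shLacZ and 3.3, 8.9, 8.15 and 11.6 CPM in shDis3l2.

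Hoxa10 (chr6:52231197-52240854), a gene of the lumbar vertebrae, thigh and uterus, was at 0.226, 0.152, 0.279, 8.34, 8.22, 2.42 and 1.79 CPM in shLacZ. With 0.0755, 0.0467, 0.29, 15.3, 32.1, 33.8 and 31.7 CPM in shDis3l2, the late libraries of the lines did not overlap. The ratio was 1.83 (1.43 to 2.35) at d6, 3.9 (3.24 to 4.73) at d8, 14 (8.98 to 23) for d10 and 17.8 (11.1 to 30.4) for d12, with a log2 fold change of 2.47 ± 0.51 (SE), adjusted p = 0.0101 in edgeR. Hoxa9 (chr6:52223100-52231089) was at 0.175, 0.114, 0.279, 13.8, 6.03, 2.42 and 3.57 CPM in shLacZ and at 0.0755, 0.0467, 0.0483, 16.1, 18.6, 17.4 and 23.8 CPM in shDis3l2, again without overlap from d6 on. At d6 its levels did not differ beyond counting error, with a ratio of 1.17 (0.941 to 1.44), and at d10 and d12 the ratio was 7.2 (4.59 to 11.9) and 6.66 (4.69 to 9.73). Its log2 fold change over the 4 days was 1.73 ± 0.43 (SE), adjusted p = 0.0189 in edgeR.

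Per length, Hoxa10, Hoxa11 and Hoxa13 were the 3 highest members in each shDis3l2 library from d8, at 9.82, 10.3 and 9.71 CPM per kb for Hoxa10, 10.9, 9.61 and 8.27 for Hoxa11 and 9.41, 9.2 and 9.55 for Hoxa13. Hoxa9 was lower, at 3.33, 3.12 and 4.26 CPM per kb, and Hoxa7, the next gene along the cluster, was at 1.43, 1.61 and 1.2. At d6 Hoxa9, Hoxa10, Hoxa11 and Hoxa13 were at 2.89, 4.67, 5.48 and 7.21 CPM per kb in shDis3l2, while in shLacZ they were close to each other at 2.48, 2.55, 2.66 and 2.55 CPM per kb. Other transcripts of this end of HoxA, picked after their values were seen, were also counted higher in shDis3l2. The long noncoding RNA Hottip, which lies next to Hoxa13, had no reads in shLacZ from d2 on and 0.188, 0.356, 1.04 and 1.4 CPM in shDis3l2 from d6 to d12. The unnamed transcript 9530018H14Rik was at 0.752, 0.828, 0.242 and 0.0992 CPM in shLacZ and 3.49, 4.17, 4.17 and 4.96 CPM in shDis3l2.

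RefSeq promoters of build GRCm38.p6 were available here for 19 of the 36 members (21 promoters). The 250 bases before the RefSeq start are shown for 4 posterior genes that were higher in shDis3l2, since they differ widely in base composition. These are Hoxa13 (chr6:52260881-52261130, minus strand), Hoxa11 (chr6:52245811-52246060, minus), Hoxa9 (chr6:52227371-52227620, minus) and Hoxd13 (chr2:74667975-74668224, plus), each read 5′ to 3′ along its gene, with every CpG dinucleotide, the letters CG, in capitals.
Hoxa13: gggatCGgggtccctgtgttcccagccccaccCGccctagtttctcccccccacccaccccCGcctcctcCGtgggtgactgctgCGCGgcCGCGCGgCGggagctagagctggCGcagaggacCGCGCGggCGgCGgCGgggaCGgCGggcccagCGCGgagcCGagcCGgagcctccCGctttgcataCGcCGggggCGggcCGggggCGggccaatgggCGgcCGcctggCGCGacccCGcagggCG
Hoxa11: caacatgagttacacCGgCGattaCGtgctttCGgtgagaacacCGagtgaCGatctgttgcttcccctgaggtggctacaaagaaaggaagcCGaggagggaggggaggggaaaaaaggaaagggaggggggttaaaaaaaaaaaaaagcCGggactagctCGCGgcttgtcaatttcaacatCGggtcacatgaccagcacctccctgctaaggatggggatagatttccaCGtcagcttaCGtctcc
Hoxa9: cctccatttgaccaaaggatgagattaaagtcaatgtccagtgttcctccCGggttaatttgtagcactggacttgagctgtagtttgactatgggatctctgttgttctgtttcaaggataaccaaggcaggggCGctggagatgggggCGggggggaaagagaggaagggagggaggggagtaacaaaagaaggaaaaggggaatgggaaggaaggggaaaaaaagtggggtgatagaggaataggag
Hoxd13: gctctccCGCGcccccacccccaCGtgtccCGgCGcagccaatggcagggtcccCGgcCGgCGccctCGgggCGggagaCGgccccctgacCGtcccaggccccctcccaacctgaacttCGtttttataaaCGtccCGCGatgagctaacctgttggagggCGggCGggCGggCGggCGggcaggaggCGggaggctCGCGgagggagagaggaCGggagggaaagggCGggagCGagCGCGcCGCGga
Hoxa13 holds 35 CpGs, a number that 2.97% of the 32851 RefSeq promoters reach, Hoxd13 31 (5.19%), Hoxa11 13 (31.5%) and Hoxa9 3 (71%). The median was 13 over the members' promoters and 6 over all. The Hoxa9 window lies inside the Hoxa9 gene of the count table, which reaches position 52231089, so it precedes a start within that gene. A relation of CpG number to the levels was not tested. The letters TTTATG, searched on both strands as a core that posterior Hox and Cdx proteins bind, occurred in 23.8% of the members' windows and 10.8% of all, and in none of these 4.

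**Figure D5:**
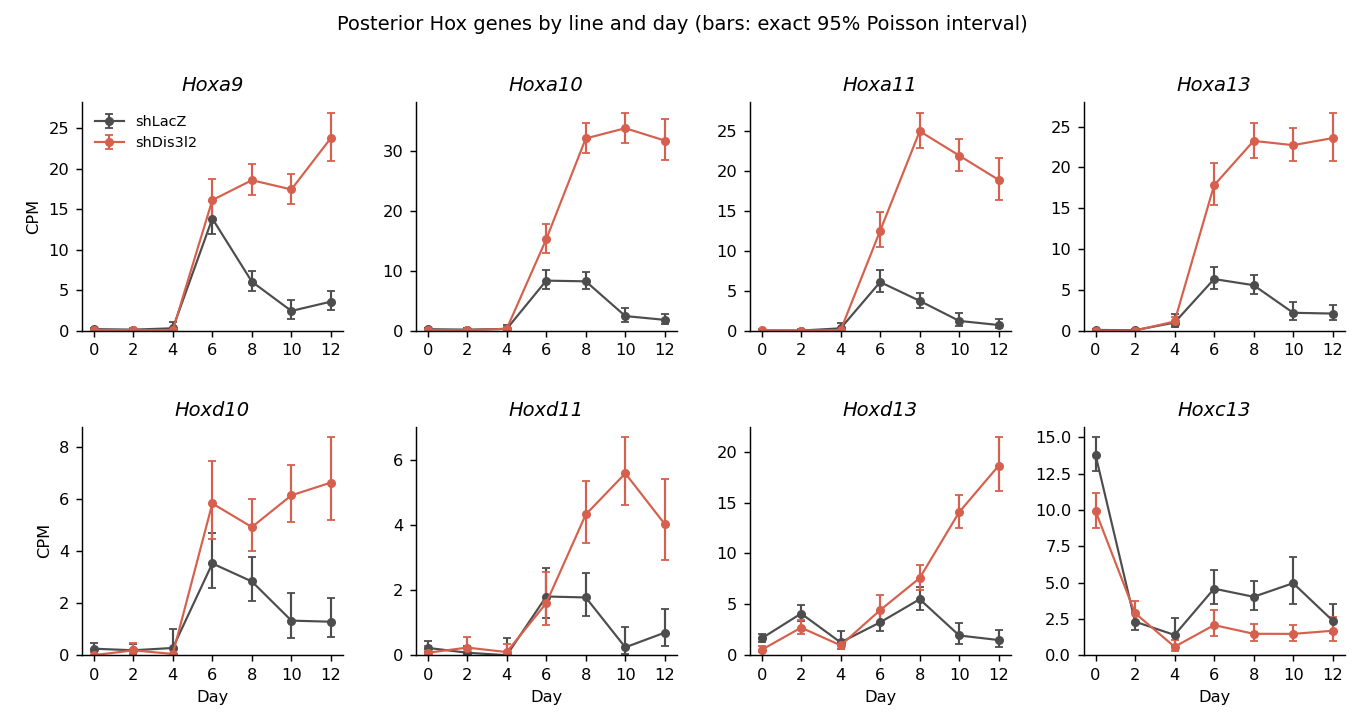
CPM by day of 8 posterior Hox genes in shLacZ (grey) and shDis3l2 (red), 1 library per point, with exact 95% Poisson intervals and a separate linear axis for each gene. The 4 HoxA genes and Hoxd13 end between 18.6 and 31.7 CPM in shDis3l2 and between 0.694 and 3.57 CPM in shLacZ at d12, and Hoxc13 is the panel in which shLacZ is higher from d6.

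Of the anterior and middle HoxA genes, Hoxa3, Hoxa5 and Hoxa7 did not pass the line test and Hoxa4 was not tested. Hoxa7, a trunk gene, lay between 1.82 and 4.89 CPM in shLacZ and between 3.02 and 4.64 CPM in shDis3l2 from d6 on (log2 fold change 0.34 ± 0.32 (SE), adjusted p = 0.447 in edgeR). Hoxa5, a gene of the neck and lung, was at 1.58, 1.42, 1.33 and 0.397 CPM from d6 to d12 in shLacZ and at 0.283, 0.967, 1.94 and 2.72 CPM in shDis3l2. The lines thus went opposite ways, with ratios of 0.179 (0.0342 to 0.6) at d6 and 6.85 (2.4 to 26.8) at d12. Hoxa3 and Hoxa4 did not exceed 2.62 CPM in any library, and at d12 Hoxa4 was 3.78 (1.22 to 15.5) times as high in shDis3l2, on 4 and 16 reads.

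Of the posterior HoxD genes, Hoxd10 and Hoxd13 were also higher in shDis3l2 over the late days. Hoxd13 (chr2:74668310-74671599), the partner of Hoxa13 in digits and genital tubercle, was at 1.65, 4.09, 1.25, 3.23, 5.5, 1.94 and 1.49 CPM in shLacZ. The levels in shDis3l2 were 0.529, 2.71, 0.966, 4.43, 7.58, 14.1 and 18.6 CPM. Per length it was the highest member at d2 in shLacZ, at 1.65 CPM per kb, and at d12 it followed Hoxa10, Hoxa13 and Hoxa11 in shDis3l2, at 7.5 CPM per kb. Up to d8 the ratio did not exceed 1.38 (1.06 to 1.8), and it was 7.26 (4.4 to 12.9) at d10 and 12.5 (7.41 to 22.8) at d12. The late ranges overlapped, since shLacZ d8 lay above shDis3l2 d6, and the log2 fold change was 1.7 ± 0.56 (SE), adjusted p = 0.04995 in edgeR.

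Hoxd10, a gene of the lumbar cord and hindlimb, was at 0.251, 0.19, 0.279, 3.53, 2.84, 1.33 and 1.29 CPM in shLacZ and at 0, 0.187, 0.0483, 5.84, 4.94, 6.16 and 6.65 CPM in shDis3l2. Its late libraries did not overlap, and the ratio was 4.62 (2.5 to 9.49) at d10 and 5.16 (2.83 to 10.2) at d12 (1.4 ± 0.33 (SE), adjusted p = 0.0165 in edgeR). Hoxd11, the partner of Hoxa11 in the forearm and kidney, was at 0.226, 0.0758, 0, 1.8, 1.77, 0.242 and 0.694 CPM in shLacZ and at 0.0755, 0.234, 0.0966, 1.6, 4.32, 5.59 and 4.03 CPM in shDis3l2. The ratio at d10 was 23.1 (6.25 to 193), on 2 reads in shLacZ, and 5.8 (2.59 to 15.3) at d12. Over the 4 days Hoxd11 did not pass in the main edgeR fit (1.67 ± 0.58 (SE), adjusted p = 0.0599), while it passed in DESeq2, without a filter and without d6. Evx2, the homeobox gene next to Hoxd13, was at 0.225, 0.651, 0.363 and 0.198 CPM from d6 to d12 in shLacZ and at 0.471, 1.02, 1.7 and 2.34 CPM in shDis3l2, with a ratio of 11.8 (2.94 to 103) at d12 on 2 and 25 reads.

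Hoxd9, which lies beside Hoxd10, did not pass the line test. It was at 4.81, 0.114, 0.139, 12.7, 6.92, 4.36 and 3.57 CPM in shLacZ and at 1.85, 0.14, 0, 16, 7.94, 5.02 and 4.87 CPM in shDis3l2. The peak was at d6 in both lines, and the log2 fold change was 0.29 ± 0.14 (SE), adjusted p = 0.149 in edgeR. Hoxd8, a trunk gene on the other side, was at 1.83, 0.152, 0.279, 7.82, 4.85, 2.54 and 3.07 CPM in shLacZ. At 0.755, 0, 0.387, 9.8, 11.4, 7.34 and 6.93 CPM in shDis3l2, it was higher over the 4 late days (1.03 ± 0.23 (SE), adjusted p = 0.0127). Among the low paralogs, Hoxd1 was at 0.125, 0.682, 1.11, 6.39, 1.42, 0.363 and 1.19 CPM in shLacZ. In shDis3l2 Hoxd1 was at 0, 0.467, 0.773, 10.4, 1.88, 0.474 and 0.655 CPM, so that d6 was the highest day in both (0.3 ± 0.3 (SE), adjusted p = 0.464). Hoxd3 and Hoxd4 stayed at or under 1.7 CPM and share 62.8% and 52.3% of their exonic bases with each other or with further genes. Both had 0 reads at d10 in shLacZ, where Hoxd4 was at least 3.65-fold higher in shDis3l2 (28 reads against the floor of 3 counts).

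In HoxC 5 of the 8 members tested were higher in shDis3l2 over the late days, and the last gene was lower. Hoxc8, which acts in the thoracic region, was at 0.501, 0.265, 0, 8.79, 8.7, 3.39 and 6.84 CPM in shLacZ. The values in shDis3l2 were 0.642, 0.187, 0.193, 15.3, 15.5, 6.68 and 3.28 CPM. The shDis3l2 level was higher from d6 to d10 and lower at d12, with a ratio of 1.78 (1.46 to 2.18) at d8 and 0.479 (0.309 to 0.729) at d12. Hoxc8 did not pass the line test (0.45 ± 0.34 (SE), adjusted p = 0.332 in edgeR). Hoxc6, its trunk neighbour, was at 1.05, 0.493, 0.279, 7.22, 3.73, 4.72 and 3.37 CPM in shLacZ. It was at 0.0755, 0.327, 0.193, 7.82, 11, 10.4 and 7.87 CPM in shDis3l2 and passed (1.0 ± 0.25 (SE), adjusted p = 0.021). Every late shDis3l2 library lay above every late shLacZ library for Hoxc6.

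Hoxc4 and Hoxc5, genes of the neck region, passed too, with ratios of 5.13 (2.7 to 10.9) and 6.26 (2.77 to 17.5) at d10. The late levels of Hoxc4 were 3.83, 2.13, 1.21 and 1.39 CPM in shLacZ against 4.52, 6.56, 6.2 and 4.12 CPM in shDis3l2 (1.37 ± 0.34 (SE), adjusted p = 0.0198 in edgeR). Hoxc5 went from 2.71 to 0.992 CPM in shLacZ and from 2.54 to 3.65 CPM in shDis3l2 between d6 and d12 (1.29 ± 0.41 (SE), adjusted p = 0.0453). Hoxc10, a lumbar gene, was at 5.26, 3.96, 1.33 and 1.49 CPM from d6 to d12 in shLacZ and 5.56, 9.62, 6.2 and 2.53 CPM in shDis3l2 (1.03 ± 0.34 (SE), adjusted p = 0.0492). Hoxc11 passed at no more than 3.36 CPM from d6 on (1.31 ± 0.36 (SE), adjusted p = 0.0286). The ratio of Hoxc10 was largest at d10, at 4.66 (2.52 to 9.56), and that of Hoxc11 at d8, at 4.37 (2.39 to 8.63), whereas those of Hoxa10 and Hoxa11 were largest at d12. Hoxc9 did not pass (0.68 ± 0.26 (SE), adjusted p = 0.0775), and Hoxc12 was at or under 0.944 CPM throughout.

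Hoxc13 (chr15:102921103-102928814), which acts in hair, nails and tail, was the lower gene of the line test. It was at 13.8, 2.31, 1.39, 4.58, 4.02, 4.96 and 2.38 CPM from d0 to d12 in shLacZ. The shDis3l2 libraries held 9.93, 2.9, 0.58, 2.07, 1.48, 1.47 and 1.69 CPM. Each late shLacZ library was above each late shDis3l2 library. As a share of the shLacZ level, shDis3l2 held 45.2% (26.4 to 74.7%) on d6 and 36.7% (22.9 to 57.4%) on d8. On d10 it held 29.6% (17.9 to 48.3%) and on d12 70.8% (36.2 to 136%), where the interval includes equality. The log2 fold change was -1.25 ± 0.25 (SE), adjusted p = 0.00913 in edgeR, and it did not pass when d8 or d10 was left out. The 3 paralogs of group 13 that passed thus did not move together, with Hoxa13 and Hoxd13 higher and Hoxc13 lower.

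HoxB peaked at d6 in both lines and was lower afterwards in both. From d2 on, 7 of the 10 HoxB members were highest at d6 in shLacZ and 8 in shDis3l2. The summed CPM of the cluster was 20.5, 32.2, 6.92, 12.8 and 14.5 at d4 to d12 in shLacZ and 28.8, 56.5, 13.1, 10.8 and 15.7 in shDis3l2. Hoxb6 was at 0, 0.0379, 0.279, 4.28, 0.71, 0.968 and 1.59 CPM in shLacZ. It was at 0, 0, 0, 12.6, 1.12, 0.521 and 0.468 CPM in shDis3l2. The peak at d6 was 2.95 (2.15 to 4.09) times as high in shDis3l2, and the level at d12 was 0.295 (0.0845 to 0.843) times that of shLacZ, on 16 and 5 reads. Over the 4 days Hoxb6 did not pass (0.32 ± 0.55 (SE), adjusted p = 0.673 in edgeR). Hoxb8, a gene of the thoracic cord, was also highest at d6 (5.64 CPM at d6 and 1.33 at d10 in shLacZ, 9.61 and 0.426 CPM in shDis3l2).

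Hoxb3, which shares with Hoxb3os 52.9% of its exonic bases, was the HoxB gene that passed (1.03 ± 0.3 (SE), adjusted p = 0.0326 in edgeR), though not in DESeq2. It was at 2.33, 0.651, 0.726 and 2.18 CPM from d6 to d12 in shLacZ and at 4.81, 1.98, 2.04 and 2.53 CPM in shDis3l2. Hoxb2 (0.4 ± 0.33 (SE), adjusted p = 0.373), Hoxb4 (-0.06 ± 0.23 (SE), adjusted p = 0.856) and Hoxb9 (0.43 ± 0.23 (SE), adjusted p = 0.189) did not pass. Hoxb5 and Hoxb7 were highest at d6 in both lines, at 0.977 and 2.71 CPM in shLacZ and 2.26 and 4.24 CPM in shDis3l2. Hoxb13 was at or under 1.08 CPM in every library and at or under 0.375 CPM after d0. Hoxb1 at d12 was 14.2 (3.59 to 122) times as high in shDis3l2, on 2 and 30 reads, after 0.391 (0.183 to 0.836) times at d10.

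Undifferentiated cells held reads of scattered genes from all 4 clusters. The d0 libraries stood apart from the others, with 78.3% (shLacZ) and 75.2% (shDis3l2) of their reads on protein-coding genes, against 85.6 to 90.5% in the other 12. Their TMM factors were 0.753 and 0.622, against 1.02 to 1.12, and the part of this in the d0 levels was not tested. At d0, 14 members reached a CPM of 1 in shLacZ and 6 in shDis3l2, and at d2 these were Hoxb9, Hoxc13 and Hoxd13 alone in both lines. Per length Hoxc13 was the highest member at d0 in shLacZ, at 5.61 CPM per kb. In shDis3l2, at 4.04 CPM per kb, it was next to Hoxb9 at 4.39. Hoxb9, a thoracic gene, was at 4.01, 1.1, 1.67, 6.46, 0.828, 2.3 and 1.98 CPM from d0 to d12 in shLacZ and at 11.3, 2.06, 0.58, 8.39, 1.63, 2.08 and 3.0 CPM in shDis3l2. Hoxc4 was at 7.35 and 2.49 CPM and Hoxd9 at 4.81 and 1.85 CPM at d0 in shLacZ and shDis3l2. All 4 genes were lower at d2, with d2 over d0 ratios in shLacZ of 0.167 (0.126 to 0.218) for Hoxc13, 0.274 (0.178 to 0.409) for Hoxb9, 0.0361 (0.0144 to 0.0754) for Hoxc4 and 0.0236 (0.00483 to 0.0701) for Hoxd9. In the same order the ratios in shDis3l2 were 0.292 (0.217 to 0.386), 0.182 (0.13 to 0.25), 0.0562 (0.0113 to 0.172) and 0.0757 (0.0151 to 0.235).

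Between the lines at d0, none of the 14 members compared was at least 3-fold higher in shDis3l2 (all genes 1.03%) and 3 were lower (all genes 4.09%). These were Hoxc5 at 0.236 (0.0968 to 0.502) times the shLacZ level, Hoxc6 at 0.0717 (0.00841 to 0.276) times and Hoxd13 at 0.32 (0.166 to 0.575) times. Hoxb9 went the other way, at 2.82 (2.32 to 3.43) times. The median log2 fold of all genes at d0 was -0.31, and TMM scaling raised the d0 folds 1.21 times, and after that Hoxc5 and Hoxc6 were still called lower, Hoxd13 was not and Hoxb9 was called higher. Cdx1, of the caudal family that activates Hox clusters, was also counted at d0, at 21 and 16.8 CPM, and at 0.19 and 0.0467 CPM at d2.

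Of the genes that act with or on the Hox clusters, most cofactors were higher in shDis3l2 late in differentiation. In edgeR's line test over d6 to d12, 7 of the 9 TALE cofactors (Pbx, Meis and Pknox genes, whose proteins bind DNA with Hox proteins) were higher in shDis3l2 and 1 was lower, with a median log2 fold change of 1.16 against 0.01 over all genes and backgrounds of 19.7% and 19.2%. Among the higher genes the log2 fold change was, for Pbx3, 1.73 ± 0.12 (SE), adjusted p = 0.000417, and for Meis1, a partner of Hoxa9, 1.41 ± 0.28 (SE), adjusted p = 0.00904. Pbx4 was lower (-0.71 ± 0.22 (SE), adjusted p = 0.0441). In summed CPM the list was at 298, 280.3, 256 and 290.4 in shLacZ and 431, 590.4, 625 and 587 in shDis3l2.

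The Polycomb and Trithorax regulators, which silence or maintain Hox genes, were mixed, with 6 of 19 higher, 5 lower and a median of -0.05. Of all genes tested, 19.7% were higher and 19.2% lower, so these counts alone do not set the list apart. Cbx8 and Kdm6b were higher (0.46 and 0.44) and Cbx7, Phc1 and Ezh1 lower (-1.39, -0.74 and -0.38), with edgeR adjusted p from 0.00371 to 0.0453. Cbx7 is the main Cbx protein of pluripotent cells. The pluripotency markers were also lower, and a link to Cbx7 was not tested. Eed, Suz12 and Ezh2, the core of the repressive complex PRC2, differed by -0.32, -0.32 and -0.2 on the log2 scale, and of these Ezh2 did not pass.

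Of the limb and urogenital partners 6 of the 7 tested were higher and none lower, led by Tbx4, the hindlimb and lung mesenchyme factor (3.58 ± 0.42 (SE), adjusted p = 0.00147 in edgeR). The others named are Osr1, an early kidney and lateral mesoderm gene (3.08 ± 0.44 (SE), adjusted p = 0.00258), and Tbx5, the forelimb and heart factor (2.29 ± 0.28 (SE), adjusted p = 0.00163). Osr1 also drives the reporter that the ESC line carries. Of the growth zone and retinoid genes, 3 of 11 tested were higher and 4 lower. The all-gene shares for this list and the limb list are again 19.7% higher and 19.2% lower. Rarb, a retinoic acid receptor and target (3.36 ± 0.54 (SE), adjusted p = 0.0039), Aldh1a2, which makes retinoic acid (2.24 ± 0.68 (SE), adjusted p = 0.0376), and Gdf11, a ligand of the trunk to tail transition (1.35 ± 0.19 (SE), adjusted p = 0.00241), were higher. Fgf8 (-3.09 ± 0.57 (SE), adjusted p = 0.00657), T, also called Brachyury (-2.4 ± 0.44 (SE), adjusted p = 0.00618), and Fgf17 (-1.56 ± 0.48 (SE), adjusted p = 0.0414), all genes of the growing tail end, were lower.

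Cdx2, the only Cdx gene with enough counts to test, was at 17.7, 61.5, 16.4, 14.8 and 10.9 CPM from d4 to d12 in shLacZ. It was at 24.8, 55.3, 12.3, 5.07 and 6.74 CPM in shDis3l2, with its peak at d6, and did not pass (-0.65 ± 0.22 (SE), adjusted p = 0.0507 in edgeR). Evx1, the only Evx gene tested, did not pass either (-0.38 ± 0.38 (SE), adjusted p = 0.469). At d10 Cdx2 was at 0.343 (0.262 to 0.449) times and Evx1 at 0.248 (0.163 to 0.375) times the shLacZ level. At d8 and d12 Evx1 was not lower in shDis3l2. Cdx2 was then at 12.3 and 6.74 CPM in shDis3l2, against 16.4 and 10.9 CPM in shLacZ.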

How the data were processed

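The authors aligned the reads to GRCm38 using Subread. Genes were counted by featureCounts, and the deposited counts are whole reads without normalization. The strand setting is not given in the sources used here. The deposited CPM values, made with edgeR per the study's methods, match CPM computed from counts with 0.25 added, scaled to the listed genes, and served to choose the members. The column name shm5 was matched to shDis3l2 through the headers of the study's supplementary table.

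Members and gene lists were chosen with earlier results of these data known. CPM was recomputed as count over library total. The named genes are every member, with all libraries for those at a CPM of at least 10 in 1 library, further members that were at least 3-fold changed on 2 or more of d6 to d12 or at a CPM of at least 1 at d0 or d2, and at most 3 called genes per list and direction. A few genes that enter the counts, sums and scores are not reported here. Tests across all genes were edgeR 4.0.16 quasi-likelihood F tests in R 4.3.3 (TMM, filterByExpr, Benjamini-Hochberg adjusted p under 0.05), with DESeq2 1.42.0 as an alternative, and were tested on simulated data. They were the line difference (d6 to d12, day as block), the line by day slope over the same 8 libraries, and d6 to d12 against d0 to d4 with line as a block. A fold against 0 counts is a bound at the floor of 3 counts per library. Intervals and floors are for counting error alone: reads were amplified by PCR and carry no molecular identifiers, so they are not independent molecules. Exonic overlap was taken from the coordinates of the count table, and 15 members share exonic bases with another gene, 6 of them over 25%. Lengths are those of the count table. Other steps used Python 3.11.15 with numpy 2.4.6, pandas 2.3.3, scipy 1.17.1 and matplotlib 3.10.9. Alternatives were the scaling, the filter, the tool, the days, the CPM minimum, the fold and the length correction.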

Additional observations from a re-analysis of the deposited data

Results flagged for a closer look

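For 7 of the 36 Hox genes the level went down from d6 to d12 in shLacZ and up in shDis3l2, with both exact 95% intervals of the ratio of d12 to d6 away from 1. That is 19.4% of the members, and by the same rule 314 of the 16181 genes of the CPM table did so (1.94%). No member went up in shLacZ and down in shDis3l2, as 241 genes did (1.49%). The ratio for Hoxa9 was 0.258 (0.175 to 0.371) in shLacZ and 1.48 (1.21 to 1.8) in shDis3l2. Hoxa10 gave 0.214 (0.122 to 0.354) in shLacZ and 2.08 (1.72 to 2.52) in shDis3l2, and Hoxa11 0.114 (0.0444 to 0.246) in shLacZ and 1.51 (1.21 to 1.89) in shDis3l2. For Hoxa13, the last HoxA gene, it was 0.33 (0.194 to 0.537) in shLacZ and 1.32 (1.09 to 1.61) in shDis3l2. In HoxD it was 0.385 (0.14 to 0.921) in shLacZ and 2.51 (1.4 to 4.7) in shDis3l2 for Hoxd11. Hoxd13 had 0.46 (0.238 to 0.845) in shLacZ and 4.21 (3.05 to 5.91) in shDis3l2. Hoxa5, with 3 and 4 reads at its low ends, had 0.251 (0.0627 to 0.745) in shLacZ and 9.6 (2.98 to 49.3) in shDis3l2. Each ratio compares 2 libraries.

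The difference of the slopes over d6 to d12 was tested and did not pass in edgeR for any of the 29 members tested, nor for any of the 16016 genes left by the filter (0.0% higher, 0.0% lower). Without the filter 11 genes of 30873 were higher and 3 lower, with no member. At an unadjusted p under 0.05, 8 members had a higher slope in shDis3l2 (27.6%) and 1 a lower one (3.45%), against 792 (4.95%) and 495 (3.09%) of all genes. DESeq2 called 87 genes higher (0.527%) and 40 lower (0.242%). Those higher included 4 of 31 members (12.9%), Hoxa9 (adjusted p = 0.0381), Hoxa10 (0.00573), Hoxa11 (0.00717) and Hoxd13 (0.0213), while edgeR gave adjusted p = 0.32 for Hoxa11 and 0.353 for the other 3. The summed mesenchyme markers went from 833 to 15270 CPM in shDis3l2 and from 321 to 1258 CPM in shLacZ between d6 and d12, and their part in the result was not tested.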

How the results depend on the processing

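The 13 members higher over d6 to d12 became 7 without the replicate block of days (the lower member, Hoxc13, stayed). The higher share was then 24.1% of the members tested and 11.8% of all genes. With 1 day left out, 2 to 14 members were higher, 6.67 to 43.8% of those tested, against 10.2 to 20.2% of all genes. In these fits 0 to 1 were lower, where 9.85 to 18.7% of all genes were. With DESeq2 size factors, library totals, no filter and DESeq2, 12 to 14 were higher, with Hoxc13 lower in each. These were 38.2 to 44.8% of the members, against 11.7 to 20% of all genes. No called member changed sign in any alternative, and 35 of 126 repeated values of called members lost significance. Days of 1 line are not replicates, so the block pairs the lines by day as labelled. The slope test gave 0 members in each edgeR fit, higher or lower, and 4 higher in DESeq2. Against the early days, 12 to 26 members rose with a day left out. These were 48 to 81.25% of those tested, against 14 to 26.3% of all genes. In these fits 0 to 1 fell, where 16 to 29% of all genes did. The fit without d4, which leaves d0 and d2 alone as early days, gave 21 that rose and 1 that fell.

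With a fold of 2, 5 members were higher and 2 lower at d6 (6.97% and 7.82% of all genes), 16 and 1 at d8 (11% and 8.28%), and 2 were lower at d12 (4.41%). With a CPM minimum of 5, 16, 14 and 9 members were compared at d6, d10 and d12. None of them was lower, where 2.57%, 1.78% and 0.603% of all genes were. At d12, 6 of the 9 were higher, against 5.28% of all genes. Without a minimum 2 of 34 were lower at d6, against 5.92% of all genes. With TMM-scaled totals 4 of 31 were higher at d8, against 4.51% of all genes. Without the member with the highest CPM per kb, the difference in mean paralog number was 0.36 at d8 over all clusters, and within HoxA -1.87 at d6, 1.11 at d10 and 0.995 at d12. At d4, 12 members in shLacZ and 9 in shDis3l2 reached 0.5 CPM and 3 in each line reached 2 CPM. The cause of these shifts was not tested. Depth limits the low members most, and in shLacZ d4 and d10 3 counts stand for 0.418 and 0.363 CPM.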
